A study of Mus musculus with 6 samples.

Results

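The YAP and TAZ pathway genes described here were 8 genes of the deposited expression table of 21367 genes: *Ctgf*, *Cyr61*, *Ankrd1*, *Amotl2*, *Ajuba*, *Yap1*, *Wwtr1* and *Tead1*. All 8 were in the table, all 8 passed the filter on low counts, and they were found by symbol alone. Kidneys of 3 *Ptpn6*+/mev mice were compared with kidneys of 3 wild-type littermates, all 7 weeks old and on the C57BL/6J background, and every mouse had the right kidney resected and the left renal pedicle clamped for 34 min. The left kidney was taken 24 h later, so both groups went through the same procedure of ischemia-reperfusion injury (IRI). The resulting injury was not equal. The study reported higher serum creatinine and urea nitrogen and worse tubular damage in the *Ptpn6*+/mev mice. Kidneys without IRI were not analysed here. The mev (viable motheaten) allele is a splice mutation of *Ptpn6*, the gene for the tyrosine phosphatase SHP-1, and the labels call the heterozygous genotype an SHP1 knockdown. The allele is present in every cell of the mouse, the RNA was from whole kidney, and 1 library of poly-A mRNA was made per mouse.

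YAP (encoded by *Yap1*) and TAZ (encoded by *Wwtr1*) are transcriptional co-activators that bind DNA through TEAD factors such as TEAD1. When the Hippo kinases are active, the MST kinases with SAV1 activate the LATS kinases with MOB1, and LATS phosphorylation keeps YAP and TAZ in the cytoplasm or sends them to degradation. When the kinases are inactive, YAP and TAZ enter the nucleus, and TEAD-bound YAP and TAZ switch on genes such as *Ctgf*, *Cyr61*, *Ankrd1* and *Amotl2*. In the kidney the pathway is known for its part in tubular repair and fibrosis after injury. An mRNA level reports neither the phosphorylation nor the location of YAP and TAZ, and neither was measured in these libraries.

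The promoters are shown because TEAD sites are what links the target genes to YAP and TAZ. RefSeq (GRCm38.p6) gave the 250 bases before the start for 6 of the 8 genes, and *Ctgf* and *Tead1* were not matched. The letters GGAATG, or CATTCC on the other strand, are the core of the TEAD motif, and a search of both strands found them in all 6 promoters, 8 times in total. Of the 32851 promoters of the same length in the RefSeq table, 12.6% hold these letters. The AP-1 motif TGACTCA, or TGAGTCA, was in none of the 6 promoters, against 4.46% of all. A match is a description of the letters and not a measured binding site. The *Cyr61* promoter (chr3:145649986-145650235, minus strand), 5′ to 3′ up to the base before the start and with the TEAD letters in capitals, reads as follows.
Cyr61: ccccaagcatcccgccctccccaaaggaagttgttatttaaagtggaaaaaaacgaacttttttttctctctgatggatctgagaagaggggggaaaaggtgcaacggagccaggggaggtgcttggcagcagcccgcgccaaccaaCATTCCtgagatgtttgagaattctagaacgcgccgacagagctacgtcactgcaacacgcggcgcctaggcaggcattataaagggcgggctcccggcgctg

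For the other 5 genes the match is shown within 26 bases, with the TEAD letters in capitals and each sequence on the strand of its gene. The distances to the start run from 65 bases in *Amotl2* to 210 bases in *Ankrd1*. *Ankrd1* and *Ajuba* hold 2 matches each, and *Yap1* and *Wwtr1*, the genes of the co-activators themselves, hold 1 each. The RefSeq windows of *Ankrd1* and *Amotl2* overlap first exons of some GENCODE transcripts, so the start used there is 1 of several. *Wwtr1* also has another RefSeq start, and its match lay 136 bases before the start used and 170 before the other.
Ankrd1, chr19:36120039-36120064, minus strand: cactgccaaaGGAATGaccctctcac
Ankrd1, chr19:36119952-36119977, minus strand: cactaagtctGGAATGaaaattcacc
Amotl2, chr9:102717729-102717754, plus strand: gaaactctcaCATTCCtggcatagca
Ajuba, chr14:54577832-54577857, minus strand: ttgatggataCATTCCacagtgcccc
Ajuba, chr14:54577810-54577835, minus strand: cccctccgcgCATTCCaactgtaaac
Yap1, chr9:8004722-8004747, minus strand: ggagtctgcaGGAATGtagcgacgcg
Wwtr1, chr3:57576031-57576056, minus strand: taaactcaaaGGAATGcagataggcg

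Levels are given as FPKM (fragments scaled to transcript length and library size), which can be compared between genes, and the values of a group are listed in the order of its replicate numbers. Differences are log2 fold changes of *Ptpn6*+/mev against wild-type, fitted to the estimated counts with edgeR, and a gene was called at a false discovery rate (FDR) under 0.05. The libraries held 10271590 to 12361745 counts, and each numbered library was taken as 1 mouse. Wild-type replicate 2 stood apart from the other 5 libraries. It lay at 53.9 on the first principal component, which held 46.2% of the variance, while the others lay between -17.5 and -3.76, and values that moved by over 1.5 times without it are given both ways for the genes and lists concerned. Levels of *Ptpn6* do not check the labels, since the mev allele alters splicing. *Ptpn6* itself stood at 11.85, 14.66 and 13.61 FPKM in the *Ptpn6*+/mev kidneys, against 17.47, 10.87 and 15.44 in the wild-type ones, with a log2 fold change of -0.19 (standard error 0.17, FDR 0.715) that was -0.33 without wild-type replicate 2 and -0.05 without wild-type replicate 1.

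*Yap1*, *Wwtr1*, *Tead1*, *Ajuba*, *Ankrd1* and *Amotl2* had FPKM levels that overlapped between the genotypes, while the CCN genes *Ctgf* and *Cyr61*, both targets of YAP and TAZ, lay apart in opposite directions. *Ctgf* was 1.55-fold higher and *Cyr61* 1.36-fold lower in *Ptpn6*+/mev kidneys, and the groups did not overlap for either gene. Groups without overlap were common in the table, at 20.4% of the 13036 tested genes (14.0% higher and 6.38% lower in *Ptpn6*+/mev). Neither gene passed the FDR threshold in the quasi-likelihood test of edgeR. That test called 0 of the 8 genes and 18 genes of the whole table, which is 0.138% (0.0690% higher and 0.0690% lower). At an unadjusted p under 0.05 the count was 2 of 8, 1 in each direction, against 12.2% of all tested genes (5.53% higher and 6.71% lower). The log2 fold change was positive for 4 genes and negative for 4, with a median of -0.06 beside -0.0024 over all tested genes. In bulk kidney, fewer cells of a type and less RNA per cell cannot be told apart.

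**Figure D1:**
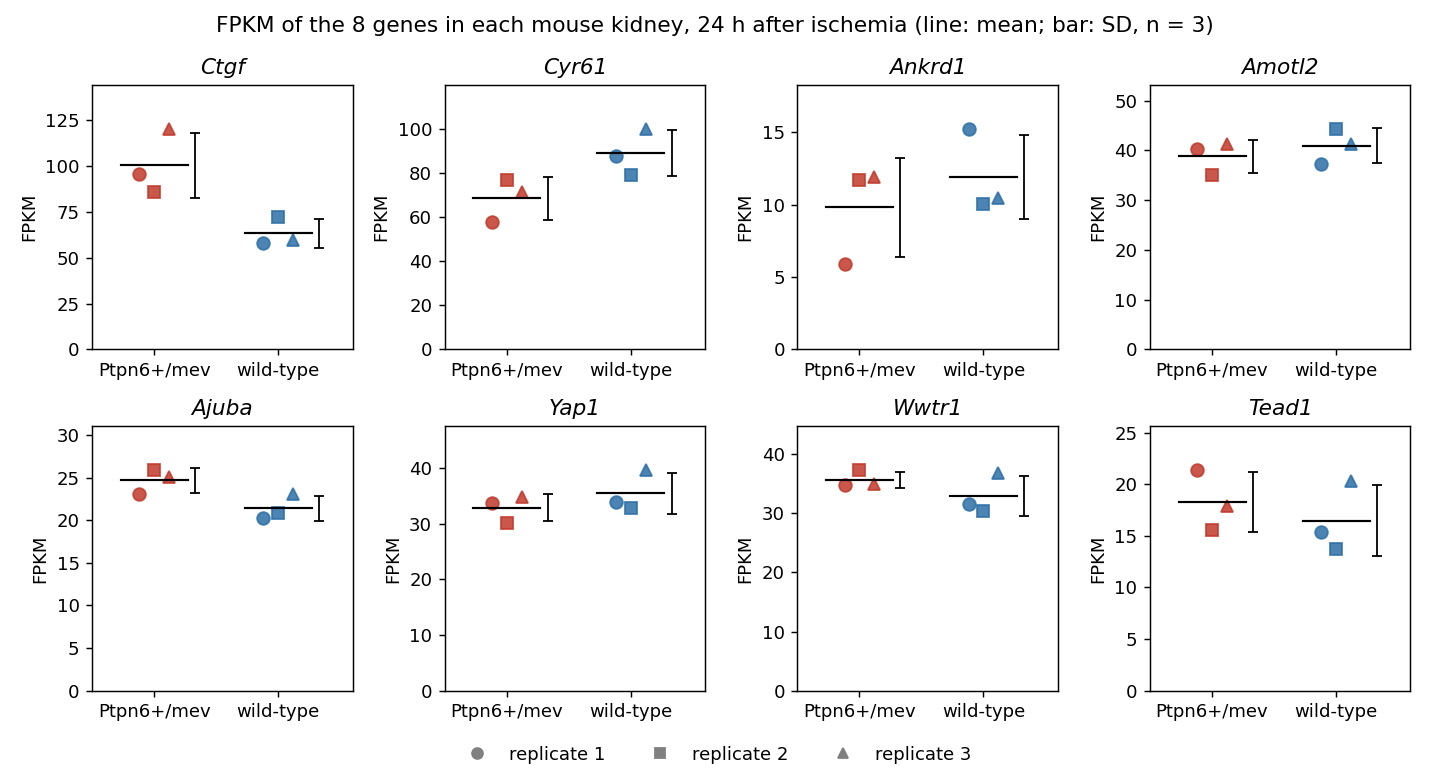
FPKM (vertical axes, each from 0) of the 8 genes in the 3 *Ptpn6*+/mev and 3 wild-type kidneys, with a point per mouse, a line at the group mean and a bar for the SD. The *Ptpn6*+/mev points lie above all wild-type points for *Ctgf* and below all of them for *Cyr61*, and the groups overlap in the other 6 panels, most narrowly for *Ajuba*, where the points meet at 23.07 and 23.09.

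*Ctgf* (also called *Ccn2*, ENSMUSG00000019997, chr10:24595442-24598683, plus strand) encodes a secreted matricellular protein of the CCN family that promotes matrix production and is a standard readout of YAP and TAZ. The *Ptpn6*+/mev kidneys held 95.51, 85.65 and 120.09 FPKM and the wild-type kidneys 57.72, 72.3 and 59.85. Every *Ptpn6*+/mev kidney was above every wild-type kidney, and wild-type replicate 2 was the wild-type kidney nearest to them. The means were 100.4 ± 17.7 (SD, n = 3) and 63.29 ± 7.88 (SD, n = 3). The log2 fold change was 0.63 (standard error 0.16, FDR 0.161). In the order of all genes by mean FPKM, *Ctgf* stood at place 917 in *Ptpn6*+/mev and place 1460 in wild-type kidneys.

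The call of *Ctgf* depended on the test. By the exact test of edgeR the FDR was 0.0214, where 2.99% of all tested genes were called (1.21% higher and 1.78% lower). By DESeq2 it was 0.0163, where 2.98% were called (1.10% higher and 1.88% lower). Once wild-type replicate 2 was left out, the log2 fold change was 0.78 (standard error 0.13) with an FDR of 0.0297, where 1.77% of genes were called (0.759% higher and 1.01% lower). Without each library in turn it ranged from 0.49 to 0.78 and stayed positive. *Ctgf* shares 665 exonic bases with *Gm15270* on the opposite strand. The sources used here do not say whether reads were counted by strand, so reads of the 2 genes may be mixed.

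*Cyr61* (also called *Ccn1*, ENSMUSG00000028195, chr3:145646976-145649981, minus strand) encodes another secreted CCN protein, an immediate early gene product that binds integrins. The *Ptpn6*+/mev kidneys held 57.71, 76.71 and 71.24 FPKM and the wild-type kidneys 87.79, 79.18 and 99.85. All *Ptpn6*+/mev kidneys were below all wild-type kidneys, with *Ptpn6*+/mev replicate 2 and wild-type replicate 2 closest to each other. The means were 68.55 ± 9.78 (SD, n = 3) and 88.94 ± 10.4 (SD, n = 3). The log2 fold change was -0.44 (standard error 0.12, FDR 0.201). *Cyr61* was called neither by the exact test (FDR 0.0965), nor by DESeq2 (FDR 0.0659), nor without wild-type replicate 2 (FDR 0.08). Without each library in turn the log2 fold change ranged from -0.53 to -0.33.

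**Figure D2:**
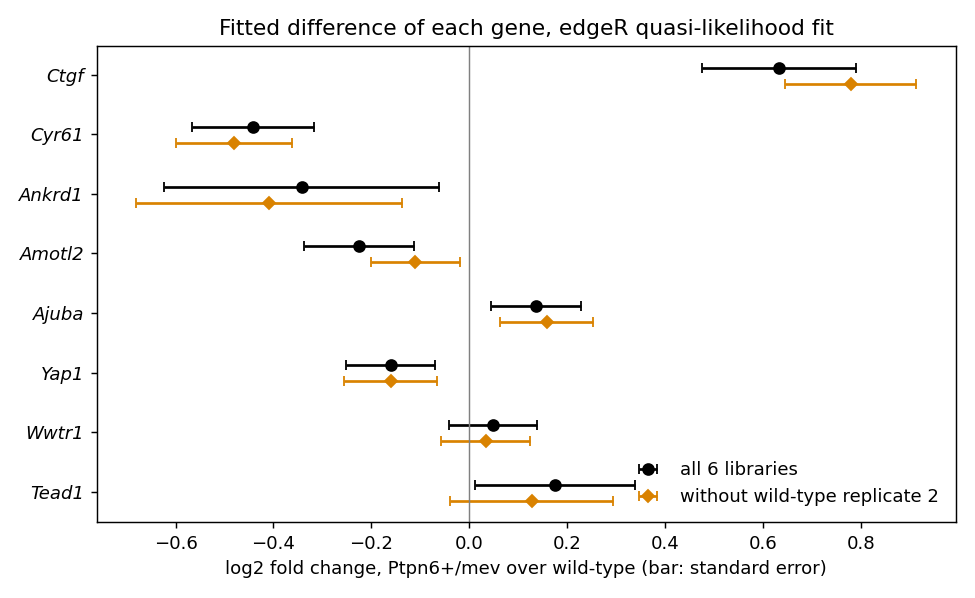
Log2 fold change of *Ptpn6*+/mev against wild-type (horizontal axis) for each of the 8 genes, with its standard error, from all 6 libraries (black circles) and without wild-type replicate 2 (orange diamonds). *Ctgf* lies farthest to the right, at 0.63 and 0.78, *Cyr61* lies farthest to the left, at -0.44 and -0.48, and *Wwtr1* lies nearest to 0.

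The 2 CCN genes differed in their order within each mouse. The ratio of *Ctgf* to *Cyr61* FPKM was 1.65, 1.12 and 1.69 in the *Ptpn6*+/mev kidneys, against 0.657, 0.913 and 0.599 in the wild-type ones. By FPKM *Ctgf* was thus the more abundant of the pair in each *Ptpn6*+/mev kidney and the less abundant in each wild-type kidney. On the log2 scale the mean ratio was 0.55 ± 0.34 (SD, n = 3) against -0.49 ± 0.32 (SD, n = 3). The difference was 1.04, and the two-sided exact permutation test over the libraries gave p = 0.1, the smallest that 3 against 3 allows. This ratio was formed after the values of both genes were seen, so the test only describes the separation. The difference was 1.08 from the estimated counts. On counts, however, the ratio of wild-type replicate 2 was 1.05, so *Ctgf* was not below *Cyr61* in that kidney.

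*Ankrd1* (ENSMUSG00000024803, chr19:36111961-36120099, minus strand) encodes a nuclear ankyrin repeat protein that is a well known YAP and TAZ target. The *Ptpn6*+/mev kidneys held 5.88, 11.72 and 11.91 FPKM and the wild-type kidneys 15.24, 10.08 and 10.46. One kidney of each group stood off, *Ptpn6*+/mev replicate 1 at the bottom and wild-type replicate 1 at the top, and the other 4 kidneys lay close together. The means were 9.84 ± 3.43 (SD, n = 3) and 11.9 ± 2.88 (SD, n = 3), with a log2 fold change of -0.34 (standard error 0.28, FDR 0.697). Leaving out *Ptpn6*+/mev replicate 1 brought it to -0.08.

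*Amotl2* (ENSMUSG00000032531, chr9:102716672-102733418, plus strand) encodes an angiomotin-like junction protein that binds YAP and holds it back, and is itself a target. The *Ptpn6*+/mev kidneys held 40.24, 35.08 and 41.21 FPKM and the wild-type kidneys 37.31, 44.31 and 41.25. The groups overlapped, and the means were 38.8 ± 3.3 (SD, n = 3) and 41 ± 3.51 (SD, n = 3). The fit on counts gave a log2 fold change of -0.23 (standard error 0.11, FDR 0.479), and limma on log2(FPKM + 1) gave -0.08. The fit on counts ranged from -0.29 to -0.11 on leaving out each library, and was nearest to 0 without wild-type replicate 2. The counts and the FPKM of *Amotl2* imply a transcript length that differed by 14.2% between libraries, from 3540 bases in *Ptpn6*+/mev replicate 1 to 4042 in wild-type replicate 1, so its counts and its FPKM need not move together. The same spread was 13.0% for *Tead1*, 5.47% for *Yap1* and 5.1% for *Ctgf*, and at most 0.113% for the other 4 genes.

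*Ajuba* (ENSMUSG00000022178, chr14:54567472-54577558, minus strand) encodes a LIM domain scaffold that binds the LATS kinases and restrains them at cell junctions. The *Ptpn6*+/mev kidneys held 23.07, 25.87 and 25.12 FPKM and the wild-type kidneys 20.29, 20.84 and 23.09. The groups overlapped narrowly, at the lowest *Ptpn6*+/mev and the highest wild-type kidney. The means were 24.7 ± 1.45 (SD, n = 3) and 21.4 ± 1.48 (SD, n = 3), and the log2 fold change was 0.14 (standard error 0.09, FDR 0.628).

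*Yap1* (ENSMUSG00000053110, chr9:7931999-8004596, minus strand) was at 33.75, 30.11 and 34.9 FPKM in the *Ptpn6*+/mev kidneys, against 34, 32.79 and 39.62 in the wild-type ones. The groups overlapped in FPKM, but on counts scaled by TMM all *Ptpn6*+/mev kidneys were below all wild-type kidneys. The share of all tested genes that lay apart on that scale was not counted, so this separation is a description only. The FPKM means were 32.9 ± 2.5 (SD, n = 3) and 35.5 ± 3.64 (SD, n = 3). The log2 fold change was -0.16 (standard error 0.09, FDR 0.54), and it ranged from -0.20 to -0.10 on leaving out each library, nearest to 0 without *Ptpn6*+/mev replicate 2. *Yap1* shares 116 exonic bases with *Gm20416* on the opposite strand.

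*Wwtr1* (ENSMUSG00000027803, chr3:57455649-57575910, minus strand) was at 34.8, 37.26 and 34.93 FPKM in the *Ptpn6*+/mev kidneys, against 31.59, 30.29 and 36.78 in the wild-type ones. Wild-type replicate 3 lay among the *Ptpn6*+/mev kidneys, and the means were 35.7 ± 1.38 (SD, n = 3) and 32.9 ± 3.43 (SD, n = 3). The log2 fold change was 0.05 (standard error 0.09, FDR 0.891), the smallest of the 8 genes, and it ranged from 0.01 to 0.11 on leaving out each library.

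By FPKM, YAP and TAZ mRNA were therefore of like abundance, and their order differed between the groups. On estimated counts, which are not scaled to length, *Wwtr1* was above *Yap1* in every kidney. The transcript length implied for *Yap1* differed by 5.47% between libraries, so small gaps in the FPKM ratio are uncertain. The ratio of *Wwtr1* to *Yap1* FPKM was 1.03, 1.24 and 1.00 in the *Ptpn6*+/mev kidneys, against 0.929, 0.924 and 0.928 in the wild-type ones. All wild-type ratios were below 1 and close together, while the *Ptpn6*+/mev ratios ran upward from just above 1, with replicate 2 highest. On the log2 scale the means were 0.12 ± 0.17 (SD, n = 3) and -0.11 ± 0.0045 (SD, n = 3). The difference was 0.23 with p = 0.1 in the two-sided exact permutation test, again the smallest that 3 against 3 allows, and from CPM it was 0.21. It ranged from 0.13 to 0.29 on leaving out each library, and was lowest without *Ptpn6*+/mev replicate 2.

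**Figure D3:**
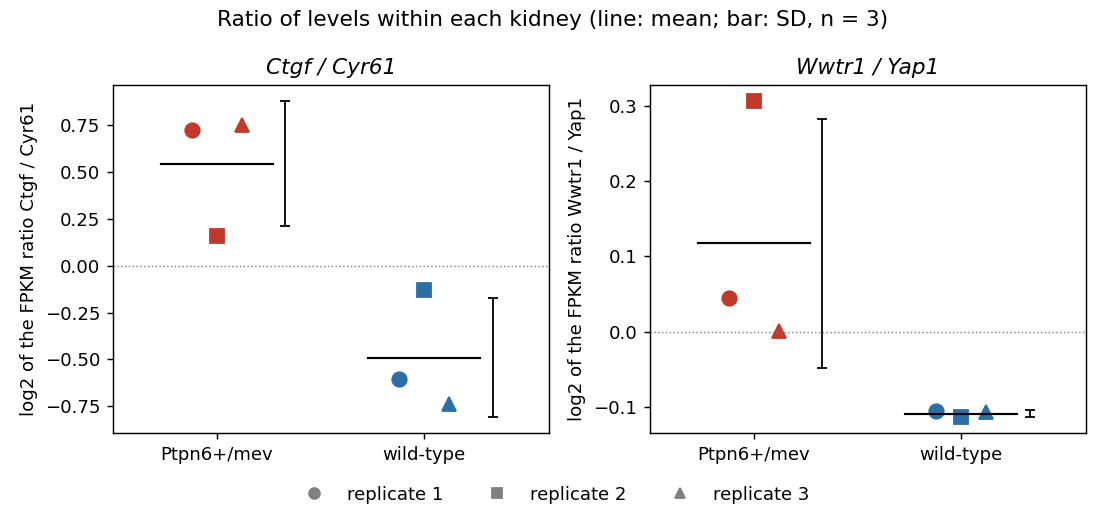
Log2 of the FPKM ratio of *Ctgf* to *Cyr61* (left) and of *Wwtr1* to *Yap1* (right) in each kidney, with the group mean as a line and the SD as a bar. In both panels the *Ptpn6*+/mev points lie above 0 and the wild-type points below 0, and the 2 vertical axes differ in scale.

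*Tead1* (ENSMUSG00000055320, chr7:112679318-112906807, plus strand) was at 21.36, 15.55 and 17.9 FPKM in the *Ptpn6*+/mev kidneys, against 15.35, 13.73 and 20.31 in the wild-type ones. The groups overlapped, with means of 18.3 ± 2.92 (SD, n = 3) and 16.5 ± 3.43 (SD, n = 3) and a log2 fold change of 0.18 (standard error 0.16, FDR 0.739), which ranged from 0.01 to 0.31 on leaving out each library. *Tead1* made up 63.29%, 50.15% and 51.22% of the summed FPKM of the 4 *Tead* genes in the *Ptpn6*+/mev kidneys, against 49.31%, 51.4% and 55.03% in the wild-type ones. The mean share was 54.9% ± 7.3 (SD, n = 3) against 51.9% ± 2.89 (SD, n = 3), a difference of 2.97 percentage points (two-sided exact permutation test, p = 0.7). Without *Ptpn6*+/mev replicate 1 the difference was -1.23 points. *Tead3* followed at 7.86 to 11.19 FPKM over the 6 kidneys, and *Tead2* and *Tead4* stayed at or below 3.8.

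By mean FPKM the order in *Ptpn6*+/mev kidneys was *Ctgf*, *Cyr61*, *Amotl2*, *Wwtr1*, *Yap1*, *Ajuba*, *Tead1* and *Ankrd1*. Of the neighbours in that order, *Amotl2* and *Wwtr1* overlapped, as did *Wwtr1* and *Yap1*. In wild-type kidneys the order was *Cyr61*, *Ctgf*, *Amotl2*, *Yap1*, *Wwtr1*, *Ajuba*, *Tead1* and *Ankrd1*. There *Amotl2* and *Yap1*, *Yap1* and *Wwtr1*, *Ajuba* and *Tead1*, and *Tead1* and *Ankrd1* overlapped. *Ctgf* and *Cyr61* were the most abundant of the 8 in each group, and *Ankrd1* the least.

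The profiles over the 6 libraries were compared as centred log2 CPM (counts scaled to library size), by the root mean square difference, where 0 is the same profile. Among the 8 genes the closest pair was *Ajuba* and *Wwtr1* at 0.067, followed by *Amotl2* and *Yap1* at 0.122. The farthest were *Ctgf* and *Ankrd1* at 0.667, and *Ctgf* and *Cyr61* were 0.599 apart. *Yap1* and *Wwtr1* were 0.145 apart, less than any pair of the 4 targets *Ctgf*, *Cyr61*, *Ankrd1* and *Amotl2*. The measure grows with the size of the changes, so genes that differ little between libraries lie close to each other. These distances rest on 6 libraries that share the same 2 groups and are a description.

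Of the other genes, those near to *Ctgf* included *Krt18*, a keratin of injured tubule cells, at 0.046 and *Edn1*, which encodes endothelin 1, at 0.122. *Krt18* was at 147.27, 130.56 and 181.92 FPKM in the *Ptpn6*+/mev kidneys, against 90.56, 111.66 and 96.6 in the wild-type ones, and these followed the order of *Ctgf* in every library. Nearest to *Cyr61* was *Irf1*, an interferon-responsive transcription factor, at 0.039, and its FPKM was 11.2, 16.17 and 14.34 against 17.57, 16.99 and 19.89. *Pdia4*, a chaperone of the endoplasmic reticulum, was at 0.077 from *Cyr61*. Nearest to *Ankrd1* were *S100a8*, a calcium-binding protein of myeloid cells, at 0.112, *Tnfrsf1b*, a tumour necrosis factor receptor, at 0.122 and *Csf2rb*, a cytokine receptor subunit, at 0.135. Nearest to *Yap1* were *Numb*, an adaptor that restrains Notch, at 0.022, *Kmt2e*, a chromatin regulator, at 0.026 and *Zbtb4*, a zinc finger protein, at 0.032. None of these genes was called by the quasi-likelihood test.

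The Hippo kinases and adaptors, which act against YAP and TAZ, were all measured, and 0 of the 11 were called. Their log2 fold changes were positive for 8 and negative for 3, with a median of 0.08. Their summed FPKM was 170 to 182.1 in *Ptpn6*+/mev kidneys and 137 to 161.6 in wild-type kidneys, where wild-type replicate 2 was the lowest. These sums were not scaled by TMM, whose factors were 1.02 to 1.03 in *Ptpn6*+/mev and 0.93 to 1.01 in wild-type libraries. FPKM therefore ran somewhat higher in *Ptpn6*+/mev kidneys than the fitted values. *Map4k4*, which encodes a kinase that can activate LATS, had the highest level, at 44.91, 44.84 and 46.47 FPKM in the *Ptpn6*+/mev kidneys, against 34.36, 20.94 and 40.39 in the wild-type ones, with a log2 fold change of 0.44 (standard error 0.18, FDR 0.363). Wild-type replicate 2 was the lowest kidney for *Map4k4*, and without it the log2 fold change was 0.25. In the same fit the log2 fold change of *Stk3*, the gene of the kinase MST2, was 0.21 (standard error 0.22), that of the adaptor gene *Sav1* 0.12 (standard error 0.14) and that of the adaptor gene *Mob1a* -0.01 (standard error 0.09), and without wild-type replicate 2 they were 0.39, 0.30 and 0.04. Without wild-type replicate 3 those of *Stk3* and *Sav1* were 0.04 and 0.02.

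Of the 14 upstream and junction regulators 0 were called, with 9 positive, 5 negative and a median log2 fold change of 0.06 (0.03 without wild-type replicate 2). *Wwc1*, which encodes KIBRA, an upstream activator of LATS, was the most abundant of them. It was the 1 gene of the list that lay lower in all *Ptpn6*+/mev kidneys, while *Frmd6* and *Pard3* lay higher in all of them by FPKM. Of all tested genes 6.38% lay lower and 14.0% higher without overlap. For *Wwc1* the *Ptpn6*+/mev kidneys held 74.54, 69.71 and 73.48 FPKM and the wild-type kidneys 93.37, 82.07 and 87.58. The log2 fold change was -0.34 (standard error 0.08, FDR 0.133), and DESeq2 called it at an FDR of 0.0101. In *Amot*, the paralog of *Amotl2*, the log2 fold change was 0.38 (standard error 0.15, FDR 0.363), and that of *Frmd6*, a FERM domain protein upstream of the kinases, 0.51 (standard error 0.21, FDR 0.379; 0.31 without wild-type replicate 2). By the same measure, the log2 fold change of *Nf2*, which encodes merlin, was 0.06 (standard error 0.08), and that of *Crb3*, a polarity protein, -0.07 (standard error 0.11), and without wild-type replicate 2 they were 0.03 and 0.04.

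Of the 7 other TEAD and VGLL factors, which bind or compete at TEAD, 5 were tested and 0 called, with a median log2 fold change of 0.26 that came to 0.02 without wild-type replicate 2. *Vgll3*, a TEAD co-factor, was low but apart, at 1.81, 1.04 and 1.48 FPKM in the *Ptpn6*+/mev kidneys, against 0.61, 0.16 and 1 in the wild-type ones, with a log2 fold change of 1.22 (standard error 0.51, FDR 0.377) and of 0.80 without wild-type replicate 2. Among the others, the log2 fold change of *Vgll4*, which competes with YAP for TEAD, was 0.02 (standard error 0.13), and those of the TEAD genes were -0.18 for *Tead3*, 0.26 for *Tead2* and 0.40 for *Tead4*. Without wild-type replicate 2 those of *Vgll4*, *Tead2* and *Tead4* were -0.07, 0.02 and 0.10, and without *Ptpn6*+/mev replicate 1 that of *Tead3* was -0.08.

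The 16 other YAP and TAZ targets were taken from a published target signature and are not all of its remaining genes. Of the 16, 15 were tested and 0 called, with 8 positive, 7 negative and a median of 0.03 (-0.004 without wild-type replicate 2). In FPKM 2 of them did not overlap between the groups, against 20.4% of all tested genes (14.0% higher and 6.38% lower). These were *Nuak2*, which was lower, and *Arhgef17*, which was higher in *Ptpn6*+/mev kidneys. *Nuak2*, which encodes a kinase of the AMPK family, was at 26.67, 34.03 and 30.49 FPKM in the *Ptpn6*+/mev kidneys, against 39.47, 39.68 and 36.96 in the wild-type ones. Its log2 fold change was -0.42 (standard error 0.11, FDR 0.193), close to that of *Cyr61*. *Igfbp3*, an insulin-like growth factor binding protein, was at 41.93, 42.97 and 40.58 FPKM in the *Ptpn6*+/mev kidneys, against 60.99, 27.07 and 71.82 in the wild-type ones. Its log2 fold change was -0.40 (FDR 0.638), -0.69 (FDR 0.0129) without wild-type replicate 2 and -0.15 without wild-type replicate 3. Among further targets the log2 fold change of *Gadd45a*, a stress response gene, was -0.15 (-0.05 without wild-type replicate 2), that of *Myof*, a membrane repair protein, 0.15, and that of *Rbms3*, an RNA-binding protein, -0.40 (standard error 0.24, FDR 0.567). On leaving out each library *Myof* reached 0.24, without wild-type replicate 3, and *Rbms3* came to -0.23, without *Ptpn6*+/mev replicate 1.

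Of the 4 other CCN family genes only *Nov* and *Wisp1* passed the filter, and neither was called. In edgeR the log2 fold change of *Nov* was 1.10 (standard error 0.57, FDR 0.492) and that of *Wisp1* -0.25 (standard error 0.48, FDR 0.894), and on leaving out a library they ranged from 0.69 to 2.08 and from -0.62 to 0.10, both genes being at levels of 2.54 FPKM or less in every kidney. *Wisp3* was listed at 0 in all libraries. *Ctgf* and *Cyr61* were therefore the only CCN genes at a level above that in these kidneys.

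**Figure D4:**
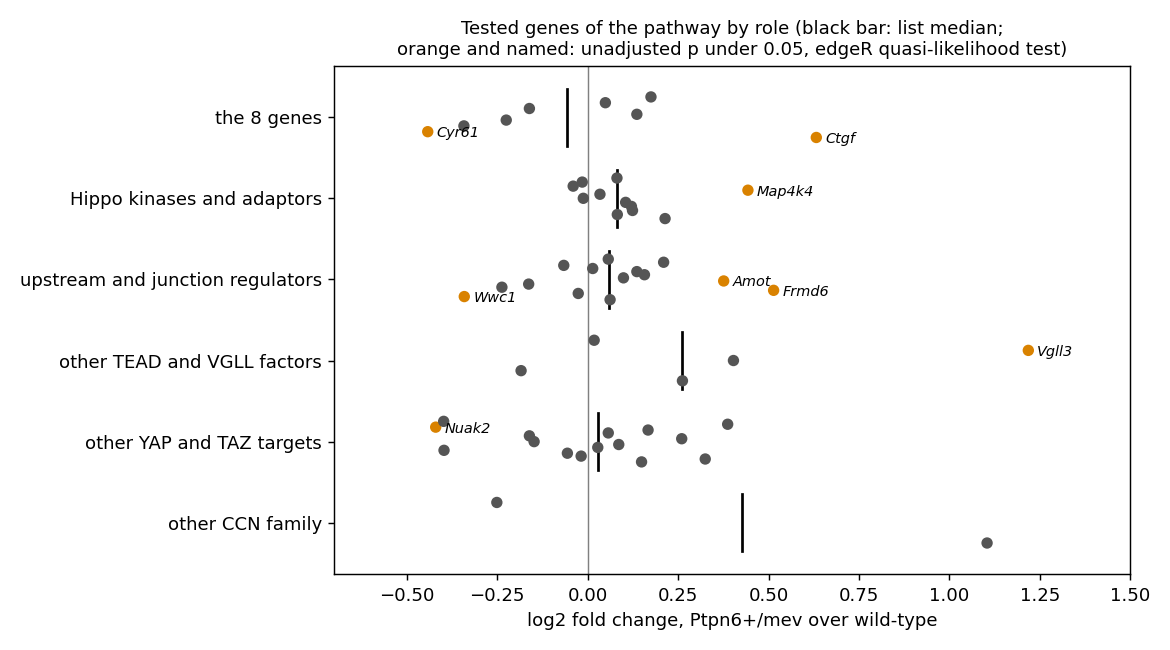
Log2 fold change of *Ptpn6*+/mev against wild-type (horizontal axis) for the tested genes of the pathway, grouped by role, with a black bar at the median of each group. Genes with an unadjusted p under 0.05 in edgeR's quasi-likelihood test are orange and named, and *Ctgf* at 0.63 and *Cyr61* at -0.44 are on opposite sides of 0.

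Markers of the cell types in the kidney were set beside these values. The summed FPKM of the proximal tubule markers was 1222 to 1365 in *Ptpn6*+/mev and 1586 to 1718 in wild-type kidneys, without overlap. Of these 10 genes 9 had a negative log2 fold change, with a median of -0.42. Of them 1 was called lower, against 0.0690% of all tested genes, the organic anion transporter gene *Slc22a8* (-0.91, standard error 0.12, FDR 0.0443). That call was lost in 5 of the 6 fits that left out a library, where the FDR ran from 0.0133 to 0.354, and in limma and with the replicate block. By the exact test and by DESeq2 3 of the 10 were called lower, against 1.78% and 1.88% of all tested genes. None of the 10 was at 0. With wild-type replicate 2 left out, 4 were called lower, *Slc22a8*, *Slc22a6*, *Miox* and *Lrp2*, against 1.01% of all tested genes. With wild-type replicate 3 left out, *Slc22a6* was called lower (FDR 0.0323 in edgeR). Injured tubule markers had 0 of 10 called, 7 positive, 3 negative and a median of 0.21 (0.36 without wild-type replicate 2). In FPKM 4 of 10 lay higher without overlap, against 14.0% of all tested genes. *Vcam1*, an adhesion molecule of injured tubule cells, had the largest log2 fold change of these (1.05, standard error 0.28, FDR 0.188) and was called by the exact test (FDR 0.018) and by DESeq2 (FDR 0.0123). *Krt18* was called higher by DESeq2 (FDR 0.0478), and *Krt18* and *Krt20* were called higher without wild-type replicate 2 (FDR 0.0369 and 0.0289 in edgeR). The most abundant of the injured tubule markers, *Spp1*, went the other way, with a log2 fold change of -0.38 (standard error 0.14, FDR 0.331). Those of *Lcn2* and *Clu*, next in abundance, were -0.08 and 0.08. Without wild-type replicate 2 those of *Spp1*, *Lcn2* and *Clu* were -0.21, 0.28 and -0.03. The summed FPKM of the list, most of it *Spp1*, was 26940 to 32970 against 30200 to 39010. *Krt18*, whose profile was nearest to *Ctgf*, is in this list. The part of either list in the values of *Ctgf* and *Cyr61* was not tested.

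Markers of fibroblasts and pericytes had a summed FPKM of 151.2 to 236.2 in *Ptpn6*+/mev and 55.14 to 256.3 in wild-type kidneys, with 0 of 8 called and a median of -0.08. Without wild-type replicate 2 that median was -0.53, and *Dcn* (FDR 0.0392 in edgeR) and *Pdgfra* (FDR 0.0496 in edgeR) were called lower. Smooth muscle markers were at 159.9 to 202.2 against 61.33 to 159.6, endothelial markers at 227.8 to 241.7 against 115.9 to 251.7, podocyte markers at 132.6 to 165.7 against 98.37 to 146.8, and macrophage markers at 198 to 317.6 against 167.5 to 280.8, with none called. Their medians were 0.13 (5 of 6 positive), 0.16 (8 of 8), 0.14 (6 of 8) and 0.21 (7 of 8), and without wild-type replicate 2 they were 0.03, -0.13, 0.01 and -0.04. Wild-type replicate 2 was the lowest library for all 5 of these sums. Distal nephron markers were at 2003 to 2915 against 2462 to 2852, with 0 of 5 tested genes called and a median of -0.43 that turned to 0.22 without wild-type replicate 2. The part of these cell types in the values of the pathway genes was not tested.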

How the data were processed

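RNA from 6 kidneys was sequenced as read pairs. The authors removed low-quality reads, used TopHat to align the rest to GRCm38.p5, and obtained FPKM from Cufflinks. The submitters' processing notes also name Bowtie2 and RSEM, and the tool that made the counts is not given in the sources used here. The labels and the study's methods name different RNA extraction reagents. The authors deposited estimated counts and FPKM for each gene and library. The column names of the *Ptpn6*+/mev libraries begin with HE, which was read as heterozygous. In 1744 of 21367 genes a count was fractional, in none of the 8 members.

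Rounded counts were fitted in R 4.3.3 with edgeR 4.0.16 (TMM, filterByExpr, quasi-likelihood test, Benjamini-Hochberg over 13036 genes). Within groups, chi-square over degrees of freedom between libraries was 6.27 to 43.3, so no library was a repeat of another. For the sequencing comparison the study's methods gave an FDR of 0.05, and no test for it was found there. Profiles used log2 CPM with a prior count of 2 and genes with a mean FPKM of at least 1. Ratios were tested with an exact permutation over libraries. The scripts were tested on simulated data.

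Named genes were the members, *Ptpn6*, the 3 most abundant, the 2 most changed and all called genes of each list, and the 3 genes nearest in profile to *Ctgf*, *Cyr61*, *Ankrd1* and *Yap1*. Not every gene that this names is printed, and some of the genes near in profile are not reported here. The members and lists were chosen with earlier results of these data known. Positions are from GENCODE M21 (GRCm38) and promoters from RefSeq (GRCm38.p6). Alternatives were edgeR's exact test, DESeq2 1.42.0, DESeq2 size factors in edgeR, no filter, at least 10 counts in every library, limma 3.58.1 on log2(FPKM + 1) and log2(FPKM + 0.1), a replicate block and each library left out. Figures used Python 3.11.15. Columns of gene annotation were not tested.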

Additional observations from a re-analysis of the deposited data

How the results depend on the processing

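The 8 members kept their direction under every alternative tried, and in 109 of 112 alternative values also their side of the threshold. The exceptions were *Ctgf* in edgeR's exact test (log2 fold change 0.63), in DESeq2 (0.63) and without wild-type replicate 2. Leaving out each library gave *Ctgf* values from 0.49 to 0.78. Called members were 0 in the quasi-likelihood test, 1 in the exact test, 1 in DESeq2 and 0 to 1 on leaving out a library. In the 5 pathway lists 0 genes were called, 1 in DESeq2 and 0 to 1 on leaving out a library. In the 8 marker lists 1 was called, 4 in the exact test, 5 in DESeq2, 2 with no filter, 0 by limma on either FPKM scale, 0 with the replicate block and 0 to 8 on leaving out a library. Over all genes 18 were called, 390 in the exact test, 388 in DESeq2, 52 with no filter, 8 by limma on log2(FPKM + 0.1), 1 with the replicate block and 1 to 231 on leaving out a library, 231 without wild-type replicate 2, 65 without wild-type replicate 3 and 1 without *Ptpn6*+/mev replicate 3. The cause of these differences was not tested. With 3 mice a group, differences of the size seen in *Yap1*, *Wwtr1* and *Tead1* did not pass the threshold, which does not show that the levels were equal.

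Whether replicate numbers pair the mice was not settled. Deviations of same-numbered libraries from their group means correlated at -0.144, -0.184 and -0.13. Each such mean rests on few libraries and includes the library itself, so these values cannot decide the question. With the replicate block *Ctgf* was at 0.63 (FDR 0.322 in edgeR) and *Cyr61* at -0.45 (FDR 0.329 in edgeR), and the block changed no call of a member. On leaving out a library, the difference between groups in the log2 ratio of *Wwtr1* to *Yap1* ranged from 0.13 to 0.29, and that in the *Tead1* share from -1.23 to 5.34 percentage points.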
